A study of Brassica rapa subsp. pekinensis with 6 samples.

Results

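Chinese cabbage is a leafy form of Brassica rapa (subsp. pekinensis). Among the genes that were abundant in its wild-type flower buds, 174 lost most of their transcript in a male sterile mutant and were still read there. They were chosen by measured values: a mean of at least 100 RPKM (reads per kilobase of gene length and per 1e+06 reads of the library) over the wild-type libraries, a mean in the mutant of at most 12.5% of the wild-type mean, and at least 0.1 RPKM in at least 1 mutant library. They are 174 of the 1831 genes at or above 100 RPKM in wild type, or 9.50%, and of 35421 genes with a read in any library. Because the contrast between the groups chose them, the size of their fall is given as a description and was not tested.

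The study sequenced RNA of developing flower buds, taken at full bloom, of the mutant msm and of the wild-type line 'FT'. Each group held 3 libraries, which carry here the numbers of their titles, namely wild type 1, 2 and 4 and msm 1, 2 and 3. The labels name no treatment, plant age or causal gene for msm. Nothing in them tells whether the replicates are separate plants, so the spread between libraries, and the p-values behind calls, may reflect technical variation alone. The tested genes held 24973538 to 26164501 uniquely assigned reads per library.

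Male sterile plants form no functional pollen. As background, pollen forms in the anther, where a nutritive layer, the tapetum, surrounds the developing grains and feeds and coats them. In many flowering plants both the tapetum and the maturing pollen make large amounts of a limited set of transcripts for wall, coat and storage products, and these transcripts can be among the most abundant of a flower bud. Whole buds also hold sepals, petals and carpels, so that a fall in bud RNA cannot tell fewer cells of a type from less RNA per cell. The files give gene identifiers without names, and none of the 174 identifiers matched the RefSeq gene table of assembly CAAS_Brap_v3.01. The genes are therefore described by identifier, coding length and level, their roles are not given, and the tissue was not checked against marker genes.

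The 174 genes spanned a wide range in wild type. Their wild-type means ran from 100.1 to 5420 RPKM with a median of 232.6 RPKM, 36 reached 500 RPKM and 12 reached 1000 RPKM. In msm their means ran from 0.0499 to 290.6 RPKM with a median of 0.455 RPKM. The percentage of the wild-type level left in msm had a median of 0.149% and ran from 0.0165% to 12.3%. In the fit over all genes, 174 of 174 were called lower in msm (edgeR's quasi-likelihood test, Benjamini-Hochberg adjusted p below 0.05 and at least 2-fold), where 12.5% of the 29104 tested genes were; the rule used this contrast, so nothing is read from the count. The median fitted log2 fold change was -9.57, against 0.005 over all tested genes.

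The share of assigned reads that these genes held in wild type follows in part from the minimum of 100 RPKM. Their summed share of all assigned reads was 7.47% ± 0.0148 (SD, n = 3) in the wild-type libraries and 0.15% ± 0.00205 (SD, n = 3) in the msm libraries. By library the shares were 7.46%, 7.48% and 7.49% in wild type 1, 2 and 4, and 0.151%, 0.148% and 0.152% in msm 1, 2 and 3. The libraries of each group thus lay close together. The gap between the groups follows from the rule, which admitted only genes with a much lower mean in msm, so nothing is read from it. Of the 100 genes with the highest wild-type mean 29 were among the 174, and of the 500 highest 73 were. In msm none of the 174 ranked among the top 100, 1 ranked among the top 500 and 2 among the top 1000.

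The amount left in msm separated the genes into very different levels. Bands were set after the values were seen: under 0.2% left (the first band), 0.2% to 1% (the second band) and 1% to 12.5% (the third band). The first band held 91 genes (52.3%), the second 28 (16.1%) and the third 55 (31.6%). When the rule was applied without msm 3, it gave 158 genes, 77 of them under 0.2%, so that whether the first band held over 50% of the genes rested on that library. Among all 1831 abundant genes, 23 lay between 12.5% and 25% left, 84 between 25% and 50%, and 1529 above 50%. Inside the limit, 25 lay between 5% and 12.5%, so the limit of the rule does not mark a gap.

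**Figure D1:**
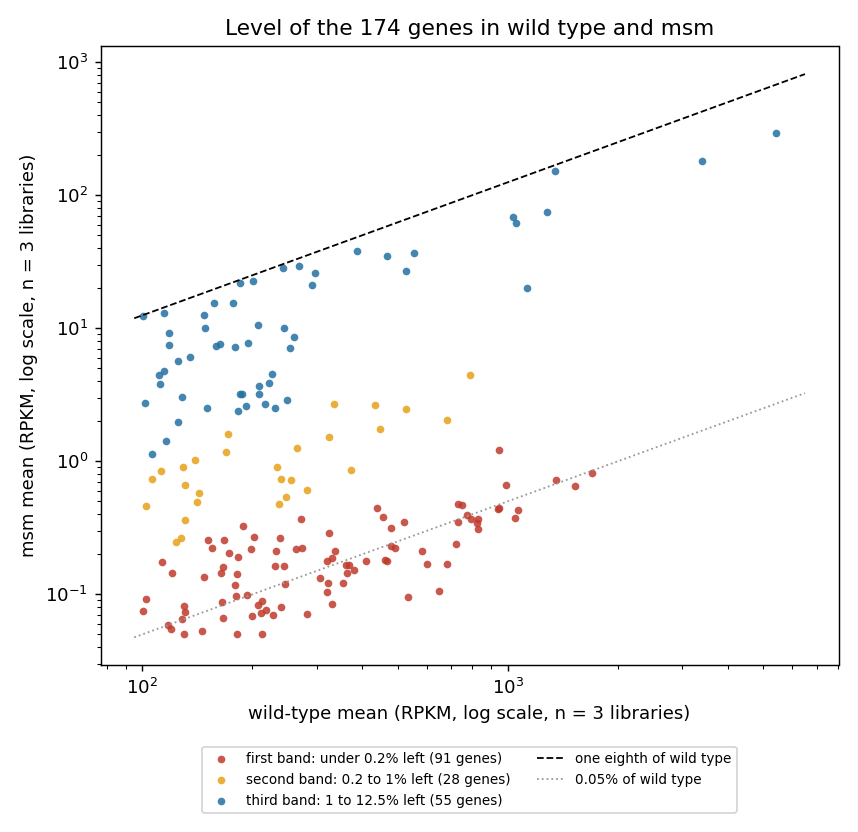
Each point is 1 of the 174 genes, with its mean RPKM over 3 wild-type libraries on the x axis and over 3 msm libraries on the y axis, both on log scales, coloured by the band of percent left. The 55 genes of the third band lie under the dashed line of 12.5% left, while the 91 genes of the first band lie around the dotted line of 0.05%, up to the gene with the highest wild-type mean of that band, 1696 RPKM.

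The most abundant genes fell into both extremes. Bra027246 (coding length 1035 bases) had 5217, 5409 and 5633 RPKM in wild type 1, 2 and 4 and 296.2, 286.4 and 289.2 RPKM in msm 1, 2 and 3. It was the second most abundant gene of the wild-type buds and still ranked 405 in msm, with 5.36% left. Bra005944 (624 bases) had 3363, 3336 and 3482 RPKM in wild type and 189.5, 175.9 and 176.1 RPKM in msm. Bra005944 kept 5.32%, nearly the same part as Bra027246, and moved from rank 4 to rank 828. Together these 2 genes made up 10.1% to 10.7% of the reads of the 174 genes in wild type and 26.9% to 28.2% in msm.

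A group of 4 among the 10 most abundant was nearly absent from msm. Bra020716 (1194 bases) had 1717, 1690 and 1682 RPKM in wild type and 0.329, 0.448 and 1.68 RPKM in msm. Its msm 3 value rested on 50 reads, against 10 and 14 in msm 1 and 2, and stood apart from both. Bra032390 (1416 bases) had 1500, 1561 and 1532 RPKM in wild type and 0.556, 0.566 and 0.848 RPKM in msm. Bra033347 (1263 bases) had 1262, 1371 and 1438 RPKM in wild type and 0.716, 0.544 and 0.919 RPKM in msm. Bra025355 (1839 bases) had 1129, 1058 and 1017 RPKM in wild type and 0.257, 0.291 and 0.74 RPKM in msm. In all 4 of these genes msm 3 was the highest msm library, and the part left was 0.0482%, 0.0429%, 0.0535% and 0.0402% in the order named.

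The other 4 of the 10, interspersed with these by wild-type level, kept more. Bra006000 (1059 bases) had 1298, 1371 and 1371 RPKM in wild type and 153.3, 148.6 and 154.3 RPKM in msm, or 11.3% left. Bra000794 (1488 bases) had 1274, 1266 and 1294 RPKM in wild type and 76.5, 79.2 and 70.3 RPKM in msm, or 5.89% left. Bra008229 (1026 bases) had 1000, 1062 and 1095 RPKM in wild type and 63.7, 54.98 and 67.1 RPKM in msm, or 5.88% left. These 3 and the 2 most abundant genes thus kept between 5.32% and 11.3%. Bra028692 (297 bases) stood between the extremes, with 1127, 1133 and 1127 RPKM in wild type and 22.5, 20.1 and 17.1 RPKM in msm, or 1.76% left. Its 3 wild-type values lay closer together than its msm values in relative terms, with a relative spread of 0.319% and 13.6%. The wild-type values rested on 8506, 8441 and 8363 reads and the msm values on 170, 156 and 127. The relative spread of a count grows as the count becomes small, so nothing is read from this contrast.

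**Figure D2:**
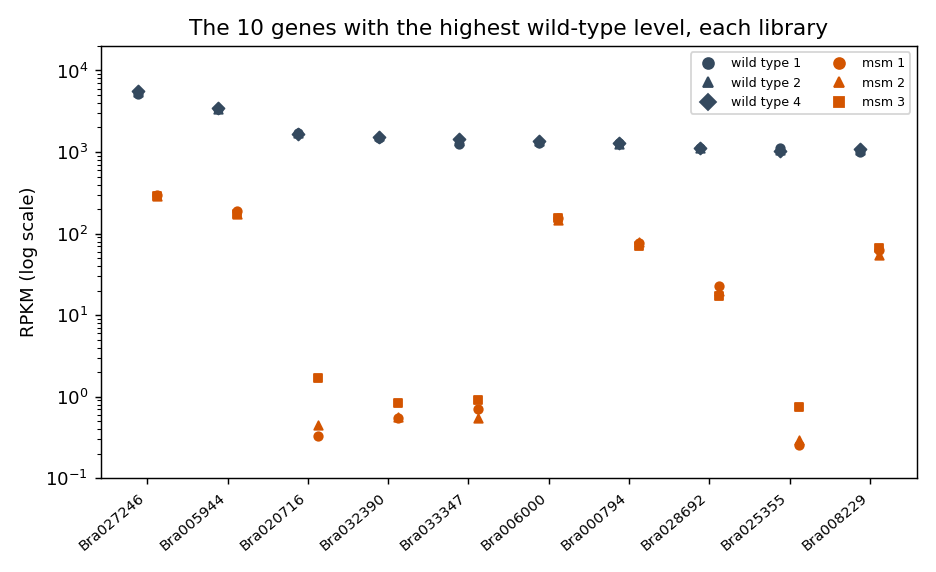
RPKM on a log scale in each of the 3 wild-type libraries (dark) and 3 msm libraries (orange) for the 10 genes of the set with the highest wild-type mean. In msm 6 of the genes lie between 17.1 and 296.2 RPKM and 4 lie between 0.257 and 1.68 RPKM, with no value between.

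In the first band the limit of 0.2%, set after the values were seen, and the minimum of 0.1 RPKM bound the part left from both sides. Its median was 0.0485%, with quartiles of 0.039% and 0.0798% and a range of 0.0165% to 0.174%, over wild-type means that ran from 100.5 to 1696 RPKM. Levels in msm had a median of 0.175 RPKM, and 1 of the 91 genes reached 1 RPKM. That gene, Bra039045 (1623 bases), had 1103, 901.4 and 828.2 RPKM in wild type and 0.921, 1.27 and 1.48 RPKM in msm. Its relative spread over the wild-type libraries, 15.1%, was the largest among the 174 genes, with wild type 1 the highest.

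The limits of the first band tie the reads left to the wild-type reads. Across its 91 genes, the summed reads of the 3 msm libraries and of the 3 wild-type libraries had a Spearman correlation of 0.898, given as a description without a p-value: the genes share the same libraries and lengths, and the limits of the band hold the 2 quantities together. In the third band the same correlation was 0.729 over 55 genes. For the whole first band 0.0561% of the wild-type reads were left, and the exact 95% Poisson interval of the reads left included that value in 68 of the 91 genes. In the third band, with 5.85% left in all, the interval included the common value in 3 of 55 genes. The third-band genes had many more reads and therefore much narrower intervals, so these 2 counts are not on an equal footing.

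Few reads stood behind many genes of the first band. The sum over the 3 msm libraries ran from 1 to 152 reads per gene, with a median of 11 reads, and 53 of the 91 genes had a read in every msm library. Bra036578 (246 bases) kept the smallest part: it had 606.8, 654.9 and 680.7 RPKM in wild type, from 3792, 4040 and 4185 reads, and 2 reads in msm 1 with none in msm 2 and 3. The part left was 0.0165%, with an exact 95% Poisson interval of 0.002% to 0.0595%. Bra013821 (552 bases) had 575.4, 521.1 and 507 RPKM in wild type and 2, 1 and 1 reads in msm 1, 2 and 3, or 0.0177% left (0.00483% to 0.0454%). Bra017977 (396 bases) had 650.1, 681.8 and 710.2 RPKM in wild type and 1, 0 and 4 reads in msm, or 0.0247% left (0.008% to 0.0575%). The intervals of these 3 genes overlap each other, and those of Bra036578 and Bra017977 include the 0.0485% median of the band, while the upper bound for Bra013821 lies under it. Bra021822 (255 bases) and Bra003296 (186 bases) had 213 and 281.7 RPKM in wild type and a single read in msm each, so their intervals, 0.000593% to 0.131% and 0.000644% to 0.142%, cover most of the band. Intervals of this kind cover counting error only.

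The minimum of 0.1 RPKM acted unequally by length. A single read reached it in genes of up to 381 to 400 bases, depending on the library, and 30 of the 174 genes were short enough for this in every library. In 29 of the 174 genes the highest msm library held at most 3 reads, and in 5 it held 1 read. Over the msm libraries, 135 of the genes had reads in all 3, 23 in 2 and 16 in only 1. Of these 16, the library was msm 3 in 9, msm 1 in 5 and msm 2 in 2. Counting msm 1 and 2 only, 35 of the 174 had reads in at most 1 library. The 16 genes tie for the largest relative spread in msm, Bra036578 being the most abundant among them.

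Beyond the minimum, 21 further abundant genes fell at least as far and stayed below 0.1 RPKM in every msm library, 10 of them with no read at all. They had 11, 12 and 13 reads in msm 1, 2 and 3 over all 21 genes, or 0.135, 0.143 and 0.163 per 1000 wild-type reads. The first band had 0.485, 0.392 and 0.807. The median wild-type level was 171 RPKM in these 21 genes and 281.7 RPKM in the first band. The minimum decides between the 2 sets, so the difference between them is no result.

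**Figure D3:**
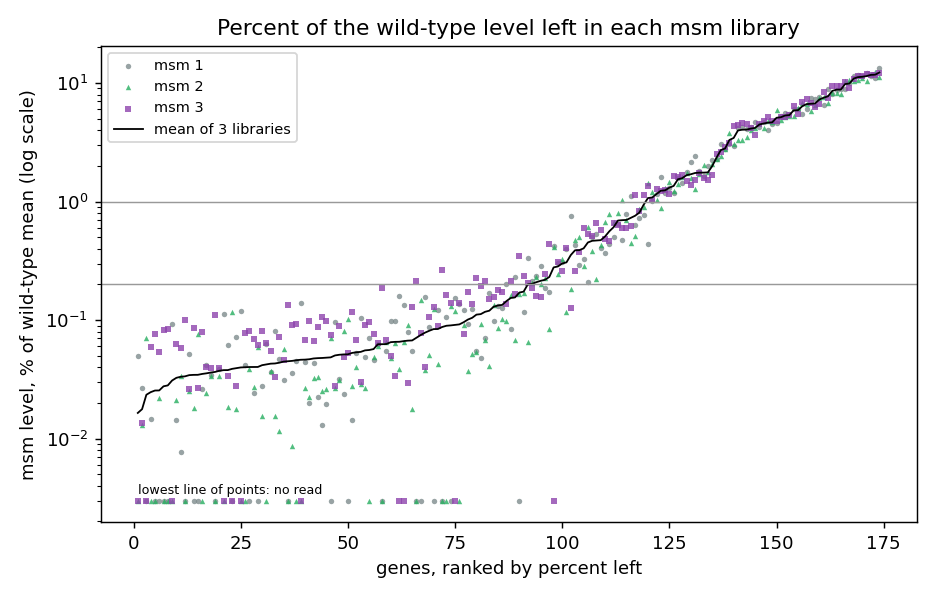
The 174 genes ranked by percent left (x axis), with the level of each msm library as a percentage of the wild-type mean on a log scale (points) and the mean of the 3 libraries (line); grey lines mark 0.2% and 1%. Points scatter widely and fall to no read on the left, where 91 genes lie under 0.2%, and close up on the right, where the 55 genes above 1% had a median relative spread of 9.35%.

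In relative terms the msm libraries differed in the first band and hardly in the third. The first band had 531, 442 and 868 reads in msm 1, 2 and 3, against 1105893, 1078090 and 1065060 in wild type 1, 2 and 4. Per 1000 wild-type reads at equal totals, 0.485 were left in msm 1 (exact 95% Poisson interval 0.445 to 0.528), 0.392 in msm 2 (0.356 to 0.43) and 0.807 in msm 3 (0.754 to 0.862). The interval of msm 3 did not overlap the other two. Scaled to library totals, msm 3 held 1.84 times the mean of msm 1 and 2 (exact 95% interval 1.68 to 2.02, counting error only), and 1.78 times (1.62 to 1.96) without Bra020716. By gene, msm 3 was the highest msm library in 59 of the 91, msm 1 in 24 and msm 2 in 8. Among the 33 genes with at least 20 reads left msm 3 was the highest in 26. The minimum of 0.1 RPKM can admit a gene through msm 3 alone, so these counts and the ratio of 1.84 depend in part on the choice of genes. The counts by gene were not repeated without msm 3. In the 21 genes below the minimum in every msm library the ratio was 1.17 (0.543 to 2.40).

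The third band showed no such ratio in its total. Its reads numbered 36951, 37170 and 36187 in msm 1, 2 and 3, or 59.05, 57.7 and 58.8 per 1000 wild-type reads. There msm 3 held 1.01 times the mean of msm 1 and 2 (0.995 to 1.02). The first-band gap, 0.807 against 0.485 and 0.392 per 1000, is smaller than the range of these 3 third-band values. A gap of that size could therefore not be told from the spread of the third band. By gene, msm 3 was the highest in 21 of 55 genes, msm 1 in 21 and msm 2 in 13. In the 1636 abundant genes with over 12.5% left, msm 1 was the highest library in 67.6% and msm 3 in 15.04%. With 3 libraries, and 1 of them standing apart, the difference between msm 3 and the others has no replicate check. The cause of the difference was not tested.

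Choosing the genes by msm 1 and 2 alone also left msm 3 higher. That choice rests on the 2 libraries at the base of the ratio, so it is no independent check. When the rule and the band were applied to msm 1 and 2 alone, 77 genes formed the first band, and in these msm 3 held 1.71 times the mean of msm 1 and 2 (1.56 to 1.89). The same was seen in genes below the abundance minimum: 83 genes with 20 to 100 RPKM in wild type, under 0.2% left and at least 1 read in msm had 93, 94 and 150 reads in msm 1, 2 and 3, a ratio of 1.66 (1.33 to 2.06). In 116 genes of that abundance with 1% to 12.5% left the ratio was 1.02 (0.991 to 1.04). As in the third band, this ratio does not tell whether a gap as small as that of the first band was present. Whether the reads left in the first band were transcribed in msm buds was not tested.

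**Figure D4:**
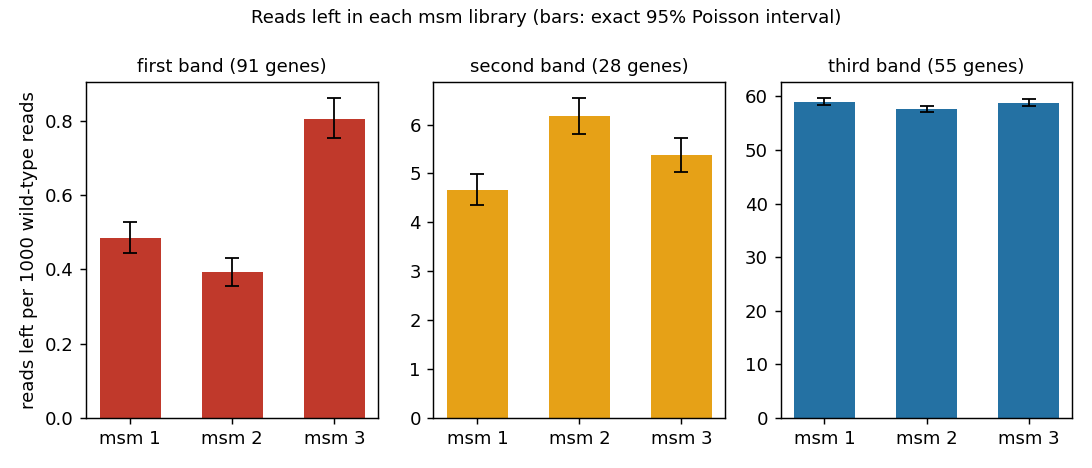
Reads left in msm 1, 2 and 3 per 1000 reads of the mean wild-type library at equal totals, for each band, with exact 95% Poisson intervals as error bars; the y axes differ. In the first band msm 3 stands at 0.807 against 0.485 and 0.392, while in the third band the 3 libraries lie between 57.7 and 59.05.

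In the second band msm 2 was the highest library in total. The 28 genes had 840, 1143 and 950 reads in msm 1, 2 and 3, and 4.67, 6.17 and 5.37 per 1000 wild-type reads. Much of the excess of msm 2 came from 2 genes, singled out after their values were seen. Bra028693 (6117 bases, the longest of the 174) had 165.7, 185.1 and 155.7 RPKM in wild type and 0.797, 1.72 and 1.01 RPKM in msm, from 124, 276 and 154 reads. Bra012756 (1170 bases) had 728, 809.3 and 824.1 RPKM in wild type and 3.43, 6.20 and 3.62 RPKM in msm, from 102, 190 and 106 reads. Both were highest in msm 2, with msm 1 and 3 close together. Without them the other 26 genes had 614, 677 and 690 reads. Over the band, the part left had a median of 0.427% and the msm level a median of 0.855 RPKM, and 27 of 28 genes had a read in every msm library.

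In the third band all 55 genes had reads in every msm library. Their msm means of at least 1 RPKM follow from the limits, at least 1% left of at least 100 RPKM. The part left had a median of 4.55%, with quartiles of 1.76% and 7.39%, and msm levels had a median of 7.76 RPKM. Over the 174 genes, 24 kept at least 10 RPKM in msm, 6 at least 50 RPKM and 3 at least 100 RPKM, the last being Bra027246, Bra005944 and Bra006000. The relative spread over the 3 msm libraries had a median of 9.35%, against 84.7% in the first band and 6.12% in the abundant genes with over 12.5% left; the relative spread of a count grows as the count becomes small. Over the wild-type libraries, where all these genes have many reads, the medians were 3.29% in the third band, 4.61% in the first and 3.66% in the abundant genes with over 12.5% left.

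The highest parts left lay just inside the limit of 12.5%. Bra021114 (1077 bases) had 93.6, 100.3 and 106.4 RPKM in wild type and 13.5, 11.2 and 12.2 RPKM in msm, or 12.3% left, and it also lay closest to the minimum of 100 RPKM with a mean of 100.1 RPKM. Bra017219 (1173 bases) kept 11.8%, with 184.6 ± 11.3 and 21.7 ± 1.15 RPKM (SD, n = 3 each, wild type and msm). Bra019283 (1311 bases) kept 11.7%, with 242.1 ± 4.96 and 28.4 ± 0.526 RPKM. Bra022803 (1518 bases) kept 11.4%, with 114.3 ± 6.16 and 13.1 ± 1.09 RPKM. In all 3 the libraries of each group lay close together. Just outside the limit, Bra031316 (765 bases) kept 12.7%, Bra016431 (333 bases) 12.8% and Bra031419 (1173 bases) 12.9%. The step from Bra021114 to these genes was smaller than the spread of Bra021114 over the msm libraries. Just inside the abundance minimum, Bra032290 (516 bases) had 100.5 ± 9.65 RPKM in wild type, with 0, 2 and 1 reads in msm, and Bra037236 (1404 bases) had 101.4 ± 5.52 RPKM with 2.72% left. The genes that missed only this minimum by least were Bra028825 at 98.9 ± 3.15 RPKM with 8.43% left, Bra010331 at 97.7 ± 3.83 RPKM with 0.262% left and Bra039940 at 96.6 ± 2.58 RPKM with 0.0629% left.

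The reads that were left covered most third-band genes almost whole. Covered coding length, deposited as a percentage and dependent on the number of reads, had a median of 99.8% in wild type and 98.4% in msm over these 55 genes, and 49 of them were covered to at least 90% in msm. In 3 of the 55 the covered length was over 10 percentage points lower in msm. These were Bra036291, at 99.7% in wild type and 77.4% in msm, Bra016341, at 97.8% and 78%, and Bra021359, at 99.5% and 85.9%, named after their values were seen. In the second band the medians were 99.6% and 78.3%, and in the first band 99.8% and 32.9%. These values are medians over genes of the mean over 3 libraries, where a library without a read counts as 0. For a typical first-band gene a minor part of the coding length was thus covered per msm library. The length covered by the 3 libraries together can be larger and is not recorded. Of 43 genes that kept 100 reads or more in every msm library, 2 were covered by over 10 percentage points less in msm than in wild type. Both lie in the second band: Bra037509, at 99% in wild type and 79.1% in msm, and Bra028693, at 97.1% and 82.4%, named after their values were seen. Bra017755 (1668 bases) had the lowest coverage of these 43 in msm, at 61.2% ± 0.284, and it was covered to a like extent in wild type, at 61.6% ± 0.06 (SD, n = 3 each).

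An exception was Bra037664 (1788 bases), singled out after its values were seen. It had 103.1, 106.2 and 110 RPKM in wild type and 0.682, 0.854 and 0.671 RPKM in msm, from 31, 40 and 30 reads. Per library these reads covered 34.9% ± 8.07 of its length, against 99.9% ± 0.115 in wild type (SD, n = 3 each). Bra035163 (2724 bases), a longer first-band gene, was covered to 64.7% ± 6.14 in msm by 24, 20 and 32 reads, fewer in sum and in msm 1 and 2 but not in msm 3. How the reads lay along either gene is not recorded in the tables.

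**Figure D5:**
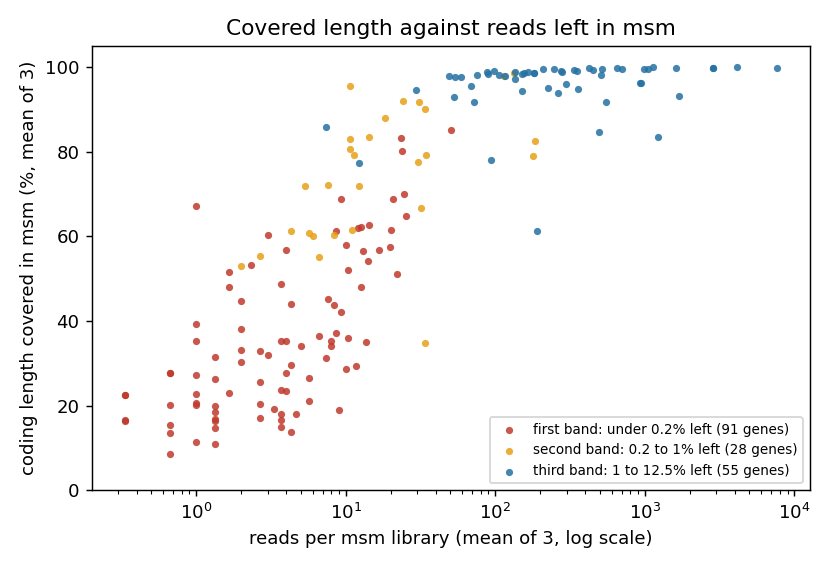
Mean reads per msm library on a log scale (x axis) against the mean percentage of coding length covered in msm (y axis) for the 174 genes, coloured by band. Of the 55 third-band genes 49 lie at or above 90%, while the first band has its median at 32.9%; Bra037664 is the second-band gene at 34.9%.

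Coding length was not named in the rule, but RPKM divides by length and the minimum of 0.1 RPKM acted unequally by it. The median was 1047 bases over the 174 genes (quartiles 516 and 1508), against 762 bases in the 1636 abundant genes with over 12.5% left and 1056 bases over all genes read. By band it was 948, 547.5 and 1077 bases. The shortest of the 174 measured 186 bases and the longest 6117 bases. The 107 abundant genes that kept over 12.5% and at most 50% had a median of 1026 bases. The 21 abundant genes below 0.1 RPKM in every msm library, which the minimum left out, had a median of 534 bases. These lengths are descriptions and were not tested, because genes of related sequence are not independent.

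Some of the 174 genes carry identifiers that directly follow each other. There were 11 such pairs with 22 genes and no longer run among the 174. The minimum of 0.1 RPKM can cut a run. Bra025355 lies in number between Bra025354 and Bra025356, which the minimum left out and which kept 0.0219% and 0.0138%. Bra039388, also left out by the minimum, kept 0.0279% and directly precedes Bra039389 of the 174. In 8 of the 11 pairs both genes lay in the same band, 5 of them in the first and 3 in the third. These bands hold 52.3% and 31.6% of the 174 genes, so some pairs share a band whatever their numbering. The count of pairs was not set beside that in other genes, so nothing is read from either count. Bra029682 (1431 bases) had 747.6, 718.6 and 729.1 RPKM in wild type and 0.165, 0.24 and 0.643 RPKM in msm. Its neighbour in number, Bra029683 (1512 bases), had 1094, 1051 and 1001 RPKM in wild type and 0.442, 0.253 and 0.423 RPKM in msm, so that both were nearly lost, with 0.0477% and 0.0355% left. Bra005943 (801 bases) had 230.9, 261.5 and 252.1 RPKM in wild type and 2.90, 2.57 and 3.15 RPKM in msm, or 1.16% left, where Bra005944 kept 5.32%. Bra028692 and Bra028693 kept 1.76% and 0.697%. Only uniquely assigned reads were counted, so reads that fit 2 near-identical copies could have been lost from both. No sequences were given, so this was not checked.

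The wild-type libraries differed little for these genes. Wild type 4 was the highest library in 55.2% of them, wild type 1 in 25.9% and wild type 2 in 19%. In the abundant genes with over 12.5% left the shares were 56.1%, 30.4% and 13.4%. The median relative spread over the wild-type libraries was 4.16% for the 174 genes, and 3.66% for those others.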

How the data were processed

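Read counts from 6 libraries, 3 of wild type and 3 of msm, were analysed. The authors deposited 1 table per library with, per the file headers, the count of uniquely assigned reads, gene length, coverage and RPKM. The deposited RPKM equalled reads per kilobase and per 1e+06 reads of the header total to within 6.44e-15, and all lengths were multiples of 3, hence coding lengths. DESeq appears, with no role, in the submitters' processing notes; aligner, build, annotation and strand use were not given in the sources used here. A gene without a row was set to 0.

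The members, bands and lists were chosen with earlier results of these data known. Genes were named by a fixed rule: the 10 most abundant members, the 5 with most and least left, those nearest the limits, the largest spread and up to 3 identifier runs; others were singled out after their values were seen. Counts were fitted over all genes with edgeR 4.0.16 in R 4.3.3 (TMM, default expression filter, robust quasi-likelihood), tested on simulated data; DESeq2 1.42.0 was an alternative. RPKM is scaled to library totals. On that scale the median log2 fold change of all tested genes was 0.22, against 0.005 with TMM, and the TMM scale multiplies each percentage left by about 0.86. Poisson intervals (SciPy 1.17.1) are at 95%. No library repeated another: pairs within a group gave a chi-square per degree of freedom of 3.02 to 8.62 over genes with 20 or more reads in the pair. The lists of cell type markers were not used, since only 1 of 35421 identifiers matched a name.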

Additional observations from a re-analysis of the deposited data

How the results depend on the processing

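The count of 174 genes stayed within 1.5 times in 11 of 13 settings. It was 104 with a wild-type minimum of 200 RPKM and 73 with at least 1 RPKM required in msm. Without msm 3 it was 158, all among the 174. Total count scaling raised the genes called higher in msm from 1351 to 2030. Without 1 library in turn, 3695 to 3838 genes were called lower, against 3641. Libraries numbered 1 and 2 occur in both groups, but the labels do not say that a number pairs them, and the deviations of same-numbered libraries correlated at -0.0985 and 0.0706 across genes; with the replicate block over these 4 libraries 3655 genes were called lower and 1308 higher, against 3665 and 1326 without the block. The median log2 fold change of the 174 genes was -7.10 as a difference of log2(RPKM + 1), where the pseudocount shrinks low levels by construction. With effective library sizes by TMM the share of reads was 8.06% in wild type and 0.139% in msm. With a band limit of 0.5% in place of 0.2%, an alternative added after the values were seen, msm 3 held 1.62 times the mean of msm 1 and 2. The rule required a fall in these same libraries, so that calls of the 174 genes lower in msm in other fits say nothing about their stability. In the first band, counts of 1 to 3 reads limit single genes.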
